A study of Mus musculus with 2 samples.

Results

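The genes described here were the nuclear-encoded subunits of oxidative phosphorylation, taken by their symbols (Ndufa, Ndufb, Ndufc, Ndufs and Ndufv with a number, Sdha to Sdhd, Uqcr, Cox5 to Cox8 and Atp5). They were 80 of the 52636 genes in each deposited table: 36 assigned to complex I, 4 to complex II, 8 to complex III, 15 to complex IV and 17 to complex V. The study compared 1 RNA-seq library of miR-29a knockout mice (KO), which lack that microRNA, with 1 library from wild-type mice (WT). Both groups were C57BL/6 mice aged 8 weeks, and each library was made from the pooled retinas of 3 animals. The labels give no sex, no further allele and no description of how the knockout was made. Xist, a noncoding RNA of X inactivation, had 0 counts in the library labelled KO and 4288 in the library labelled WT. A difference in sex between the libraries therefore cannot be told apart from genotype in any value below. With 1 library in each group there are no replicates and no test, so every difference is one between these 2 libraries, and intervals cover counting error only.

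Oxidative phosphorylation couples the oxidation of NADH and succinate to ATP synthesis in the inner mitochondrial membrane. Complexes I (NADH dehydrogenase), III (cytochrome bc1) and IV (cytochrome c oxidase) pump protons, complex II (succinate dehydrogenase) feeds electrons from the citric acid cycle, and complex V (ATP synthase) uses the proton gradient. Most subunits are encoded in the nucleus and a few in mitochondrial DNA, and some subunits of complex IV have isoform genes that are used in different tissues. Photoreceptors of the retina are known for dense mitochondria and a high demand for ATP.

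The libraries held 24876830 counts labelled KO and 26805787 counts labelled WT. The tissue label was not borne out by defining markers: all 10 photoreceptor markers were under 1 CPM (a gene's count relative to all counts of its library) in both libraries, with a sum of 0.362 CPM in the library labelled KO and 0.634 CPM in the library labelled WT. Of 9 inner retinal neuron markers, 7 had 0 counts in both libraries, and the sum was carried by Rbpms, with 790 counts in the library labelled KO and 885 in the library labelled WT. The 5 Mueller glia markers summed to 190 CPM in the library labelled KO and 164 CPM in the library labelled WT, almost all from Glul and Slc1a3, while Aqp4 had 0 counts in both. The 6 fibroblast markers summed to 7005 CPM in the library labelled KO and 6025 CPM in the library labelled WT. Markers of macrophages (7 genes, none at 0 in either library) summed to 385 CPM in the library labelled KO and 102 CPM in the library labelled WT, and those of endothelium (6 genes, none at 0) to 39.0 CPM in the library labelled KO and 16.1 CPM in the library labelled WT. The part of these differences in the values below was not tested. In bulk RNA, fewer cells of a type and less RNA per cell cannot be told apart.

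The microRNA removed in the KO mice is shown because its seed, bases 2 to 8 in capitals, sets the letters searched in the members. The mature sequence of RefSeq (GRCm38.p6, chr6:31062673-31062694, minus strand) is

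miR-29a-3p: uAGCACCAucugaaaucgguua

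The complement of that seed, TGGTGCT, occurred in the longest annotated 3' UTR of 3 of 80 members (3.75%), against 1860 of 11591 genes past the count minimum that have an annotated 3' UTR (16.0%). The searched UTRs were shorter in the members, with a median of 199 bases against 1225 bases over all those genes. The 4 matches are printed with the heptamer in capitals, on the strand of the transcript. Each base number is that of the first capital letter, and the printed stretch starts before it. There were 2 in Atp5g1, a gene of the c ring of ATP synthase on chromosome 11. Ndufb8, an accessory subunit of complex I on chromosome 19, had 1, and Sdhc, a membrane anchor of complex II on chromosome 1, had 1.

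Atp5g1, from base 53 of 4252 of the UTR: catgccagtccTGGTGCTggagtctactga
Atp5g1, from base 271 of 4252 of the UTR: ggtaatgatgtTGGTGCTttgtcactttca
Ndufb8, from base 1179 of 1643 of the UTR: gacactgcatgTGGTGCTcagacattcagg
Sdhc, from base 1112 of 2636 of the UTR: tgctttgtttgTGGTGCTaggggtcaaagc

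The base after the heptamer was A in Sdhc and another base in the other matches. Atp5g1 had 3006 counts in the library labelled KO and 3589 in the library labelled WT (log2 ratio of KO over WT -0.15). Ndufb8 had 2635 counts in the library labelled KO and 3889 in the library labelled WT (log2 ratio -0.45). Sdhc had 3352 counts in the library labelled KO and 3322 in the library labelled WT (log2 ratio 0.12). None of the 3 genes was 1.5-fold or more higher or lower. A match of letters is a description and not a shown site.

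Log2 ratios here are of CPM in KO over WT after adding 0.5 CPM to each, and the minimum for a gene was 50 counts in the library where it was higher. Of the 80 members, 76 passed that minimum. The 4 that did not were complex IV isoform genes: Cox6a2 with 9 counts in the library labelled KO and 3 in the library labelled WT, Cox8b with 18 counts in the library labelled KO and 11 in the library labelled WT, and Cox7b2 and Cox8c with 0 in both. A count of 0 allows up to 3 counts, or 0.121 CPM in the library labelled KO and 0.112 CPM in the library labelled WT.

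The nuclear subunits as a set were close to level between the libraries, with 70 of 76 within 1.5-fold (92.1%), against 77.8% of all 12382 genes past the minimum and 82.2% of the 4984 genes with 1000 or more counts. A log2 ratio above 0 was seen in 33 members (43.4%), against 55.0% of all genes. The members' median log2 ratio was -0.06 (quartiles -0.26 and 0.14), beside a median of 0.06 over all genes (quartiles -0.25 and 0.37). In all, 4 members were higher in KO by 1.5-fold or more, where 13.3% of all genes were, and 2 were lower by that much, where 8.88% of all genes were. Other scalings moved this split: 3 higher and 3 lower with TMM factors, 3 and 4 with median-of-ratios factors or on FPKM, and 2 and 3 after the GC and length correction. At 2-fold, no member was higher (4.47% of all genes) and the same 2 were lower (2.82% of all genes). Members are counted deeply, with a median of 3294.5 counts in the higher library against 698 over all genes, so counting error was small for most of them. All 80 members summed to 13216 CPM in the library labelled KO and 13896 CPM in the library labelled WT, which is 1.32% of the library labelled KO and 1.39% of the library labelled WT.

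**Figure D1:**
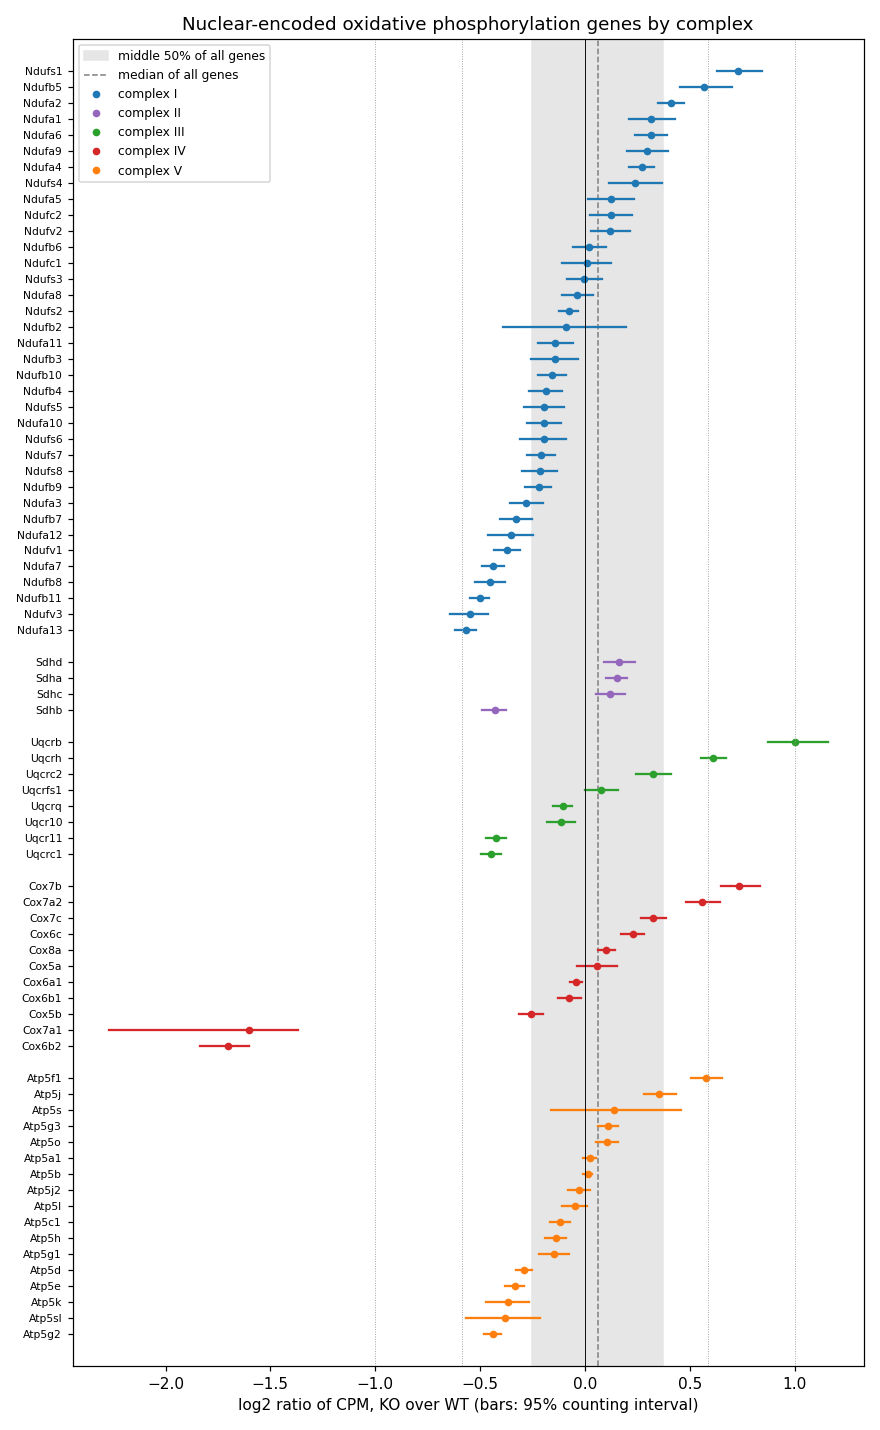
Log2 ratio of CPM, KO over WT, of the 76 members past the count minimum, grouped by complex and ordered within it. Points are ratios after adding 0.5 CPM, bars are 95% counting intervals of the plain CPM ratio, the grey band is the middle 50% of all genes, and dotted lines mark 1.5-fold and 2-fold. Cox6b2 and Cox7a1 stand apart at the left and Uqcrb at the right.

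The largest differences were in isoform genes of complex IV. Cox6b2 encodes an isoform of subunit 6b known from testis (chr7:4751792-4753094, minus strand, GRCm38). It had 796 counts in the library labelled KO and 2822 in the library labelled WT, or 32.0 CPM in the library labelled KO and 105 CPM in the library labelled WT, a ratio of 0.304 (95% counting interval 0.281 to 0.329). Cox7a1 encodes the heart and skeletal muscle isoform of subunit 7a (chr7:30184144-30186078, plus strand). It had 54 counts in the library labelled KO and 204 in the library labelled WT, or 2.17 CPM in the library labelled KO and 7.61 CPM in the library labelled WT, a ratio of 0.285 (0.207 to 0.387). Both intervals lay wholly past 1.5-fold lower, and no annotated transcript of another gene shared 90% identity over 100 bases or exon positions with either gene. Male germ cell markers (4 genes, 3 at 0 in each library) summed to 0.241 CPM in the library labelled KO and 0.0746 CPM in the library labelled WT. Skeletal muscle markers (8 genes, 1 at 0 in each library) summed to 20.9 CPM in the library labelled KO and 13.5 CPM in the library labelled WT. They did not share 1 direction: Acta1 had 135 counts in KO and 66 in WT, and Actn3 had 101 in KO and 120 in WT. Cardiac markers (4 genes) summed to 0.603 CPM in the library labelled KO and 0.261 CPM in the library labelled WT. The part of such cells in the values of Cox6b2 and Cox7a1 was not tested.

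The partners of these isoform genes differed by less. Cox6b1, the widely expressed 6b gene, had 4797 counts in the library labelled KO and 5444 in the library labelled WT (log2 ratio -0.07). Cox7a2, the widely expressed 7a gene, had 2960 counts in the library labelled KO and 2160 in the library labelled WT (log2 ratio 0.56, just under 1.5-fold higher). On the authors' FPKM, which allows for transcript length, Cox6b2 made up 9.59% of the summed FPKM of Cox6b1 and Cox6b2 in the library labelled KO and 24.9% in the library labelled WT. Cox7a1 made up 3.12% of the summed FPKM of its pair in the library labelled KO and 14.3% in the library labelled WT. The muscle isoform gene Cox8b made up 0.269% of the FPKM of the Cox8 genes in the library labelled KO and 0.164% in the library labelled WT, and Cox6a2 0.0565% of its pair in the library labelled KO and 0.0170% in the library labelled WT.

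A pair of isoform genes outside the symbol rule, Ndufa4l2 and Cox4i2, were lower in KO too. Both are known as genes induced by low oxygen. Ndufa4l2, a paralog of Ndufa4, had 22 counts in the library labelled KO and 840 in the library labelled WT, a ratio of 0.0282 (0.0176 to 0.0430). Its share of the FPKM summed with Ndufa4 was 0.575% in the library labelled KO and 19.8% in the library labelled WT. Cox4i2 had 19 counts in the library labelled KO and 142 in the library labelled WT, a ratio of 0.144 (0.0843 to 0.234), and a share of 0.162% of the FPKM of the Cox4 pair in the library labelled KO and 0.767% in the library labelled WT. Its partner Cox4i1, the main gene for subunit 4, had 22988 counts in the library labelled KO and 36145 in the library labelled WT (log2 ratio -0.54). Ndufa4 itself, now counted with complex IV although its symbol places it in complex I, had 4794 counts in the library labelled KO and 4283 in the library labelled WT (log2 ratio 0.27).

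**Figure D2:**
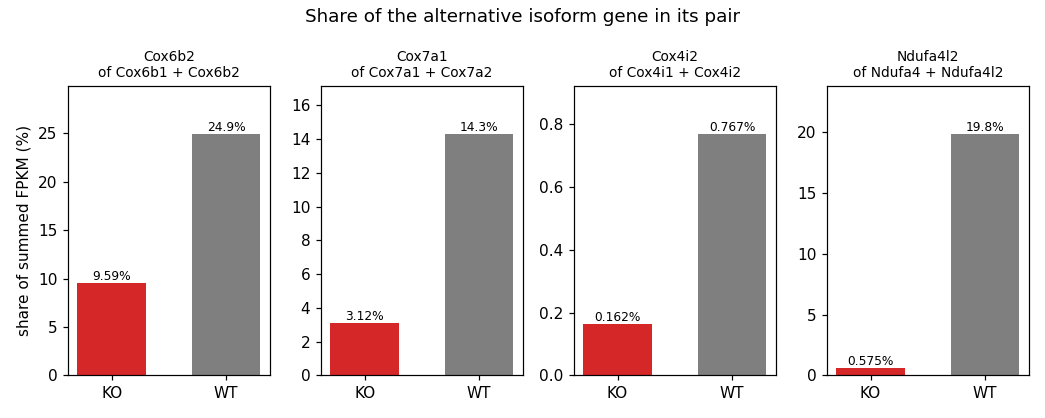
Share of the summed FPKM of an isoform pair (percent, axis of each panel from 0) taken by Cox6b2, Cox7a1, Cox4i2 and Ndufa4l2 in the library labelled KO (red) and the library labelled WT (grey), 1 library each. The KO bar is the lower in each of the 4 panels, and Cox4i2 is under 1% in both libraries.

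The 200 bases upstream of the RefSeq start (GRCm38.p6) are shown for the 2 isoform genes with the largest differences and for their partners, for comparison of base composition. All are printed on the strand of the gene.

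Cox6b2, chr7:4753095-4753294, minus strand: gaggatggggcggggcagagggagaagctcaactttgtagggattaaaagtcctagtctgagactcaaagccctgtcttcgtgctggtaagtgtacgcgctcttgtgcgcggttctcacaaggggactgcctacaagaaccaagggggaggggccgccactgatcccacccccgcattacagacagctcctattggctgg
Cox6b1, chr7:30626115-30626314, minus strand: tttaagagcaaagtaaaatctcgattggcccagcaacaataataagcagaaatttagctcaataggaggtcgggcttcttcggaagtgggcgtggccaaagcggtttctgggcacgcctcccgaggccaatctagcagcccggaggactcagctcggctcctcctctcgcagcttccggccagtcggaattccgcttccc
Cox7a1, chr7:30183971-30184170, plus strand: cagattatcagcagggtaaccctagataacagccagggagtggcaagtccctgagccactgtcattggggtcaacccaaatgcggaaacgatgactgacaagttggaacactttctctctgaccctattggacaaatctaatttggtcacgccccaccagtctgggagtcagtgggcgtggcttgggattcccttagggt
Cox7a2, chr9:79759854-79760053, minus strand: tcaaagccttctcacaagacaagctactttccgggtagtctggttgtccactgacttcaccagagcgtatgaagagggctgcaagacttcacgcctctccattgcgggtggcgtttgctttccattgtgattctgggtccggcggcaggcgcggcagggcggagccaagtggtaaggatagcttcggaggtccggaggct

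Counting CpG dinucleotides in these windows gave 8 for Cox6b2 and 13 for Cox6b1, with a GC content of 57.5% and 55.5%. The windows of Cox7a1 and Cox7a2 held 4 and 12 CpG, with a GC content of 52.0% and 57.5%. Core letters of 4 factors known to act on respiratory genes were searched on both strands of the wider RefSeq promoters, from 250 bases before to 50 bases after the start. These promoters were found for 68 of the 80 members (74 promoters). The core of NRF1, GCGCATGC, was in 13.5% of the members' promoters and 2.71% of all 32851 promoters, and its member genes were Atp5g2, Atp5k, Atp5l, Cox6a1, Ndufa11, Ndufa6, Ndufa8, Sdhb, Uqcr11 and Uqcrc1. The core of YY1, AAGATGGC, was in 16.2% of the members' promoters and 2.75% of all. The ETS core, CCGGAAGT, was in 6.76% of the members' promoters and 3.89% of all, and the ERR core, TCAAGGTCA, in 2.70% of the members' promoters and 0.423% of all. The members' promoters had a median of 19 CpG per 300 bases against 7 over all promoters, and a median GC content of 57.5% against 52.7%. None of these letters was in the 4 windows printed above.

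Complex I had a median log2 ratio of -0.14, with 13 of 36 members above 0 (36.1%, against 55.0% of all genes) and 23 below. Within 1.5-fold were 35 of 36 (97.2%, against 77.8% of all genes). The median was -0.05 after the GC and length correction and -0.04 without members that share sequence with another gene. Its members summed to 3819 CPM in the library labelled KO and 4224 CPM in the library labelled WT, a ratio of 0.904 (0.896 to 0.912). Ndufs1, the largest subunit of the complex, which carries iron-sulfur clusters of the NADH-oxidizing arm (chr1:63143596-63176833, minus strand), was the 1 member past 1.5-fold. It had 1746 counts in the library labelled KO and 1130 in the library labelled WT, a ratio of 1.66 (1.54 to 1.80). The 8 genes of that arm and of the quinone-binding module (Ndufv1 to Ndufv3, Ndufs1 to Ndufs3, Ndufs7 and Ndufs8) had a median of -0.14 with 6 below 0, against -0.0015 with 4 below 0 after the GC and length correction. Ndufv1, the FMN-binding subunit, had 3516 counts in the library labelled KO and 4908 in the library labelled WT (log2 ratio -0.37). Ndufv3, an accessory subunit beside it, had 1598 counts in the library labelled KO and 2525 in the library labelled WT (log2 ratio -0.55). Ndufv2, which carries a further iron-sulfur cluster, had 1927 counts in the library labelled KO and 1910 in the library labelled WT (log2 ratio 0.12).

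Among accessory subunits of complex I, the 10 Ndufb genes, which belong to the membrane arm, had a median of -0.17 with 8 below 0, and of -0.14 with 7 below 0 after that correction. Ndufb11 had 6595 counts in the library labelled KO and 10064 in the library labelled WT (log2 ratio -0.50). Ndufb5 stood at the other end, with 1295 counts in the library labelled KO and 936 in the library labelled WT (log2 ratio 0.57). The 13 Ndufa genes were split, with 6 above 0 and 7 below and a median of -0.04 that turned to 0.02 after the correction. Their range ran from -0.57 for Ndufa13, also known as Grim19, to 0.41 for Ndufa2. Ndufa13 had 4996 counts in the library labelled KO and 7985 in the library labelled WT, and Ndufa2 had 4679 counts in the library labelled KO and 3797 in the library labelled WT.

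On the FPKM scale, complex I genes spanned 1.32 to 335 FPKM in the library labelled KO and 1.47 to 437 FPKM in the library labelled WT, with medians of 71.3 FPKM in KO and 79.3 FPKM in WT. Ndufa2 was highest in the library labelled KO, with 335 FPKM there and 262 FPKM in the library labelled WT. Ndufb11 was highest in the library labelled WT, with 297 FPKM in the library labelled KO and 437 FPKM in the library labelled WT. These levels depend on the gene lengths used by the authors. Per kilobase of the longest coding transcript of GENCODE, Ndufa7 came first in both libraries, with 382 CPM per kilobase in KO and 518 CPM per kilobase in WT. Ndufb2 stayed last on both scales, with 182 counts in the library labelled KO and 210 in the library labelled WT. Both scales divide by a long model of it. That transcript has 4371 bases, and its union of annotated exons has 5628. The authors' FPKM with the total of the library labelled WT gave 5321 bases. Its exons share 145 bases with Gm42420 on the same strand. The part of these limits in its low level was not tested.

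Complex II has only 4 subunits. Its catalytic flavoprotein gene Sdha had 6665 counts in the library labelled KO and 6466 in the library labelled WT (log2 ratio 0.15). The membrane anchor Sdhd had 3025 counts in the library labelled KO and 2908 in the library labelled WT (log2 ratio 0.16). Sdhb, the iron-sulfur subunit between them, went the other way, with 4038 counts in the library labelled KO and 5873 in the library labelled WT (log2 ratio -0.43, ratio 0.741, 0.712 to 0.771). The summed CPM was nearly equal, 687 in the library labelled KO and 693 in the library labelled WT. The median of the 4 log2 ratios, 0.14, turned to -0.07 after correction for transcript GC content and length. After it Sdha and Sdhc were at -0.07, Sdhb at -0.21 and Sdhd at 0.02, so Sdha and Sdhb no longer differed in direction.

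Complex III had 4 members above 0 and 4 below, with a median of -0.01. Uqcrb, a small ubiquinol-binding subunit (chr13:66900617-66905378, minus strand), had 1177 counts in the library labelled KO and 628 in the library labelled WT, or 47.3 CPM in KO and 23.4 CPM in WT, a ratio of 2.02 (1.83 to 2.23). With 0.5 CPM added its log2 ratio was just under 1, so it is not counted at 2-fold. It has 4 near-identical pseudogenes, which had 113 counts together in the library labelled KO and 125 in the library labelled WT, and pooled with them its log2 ratio was 0.87. Uqcrh, the hinge protein of cytochrome c1 (chr4:116066965-116075071, minus strand), had 5681 counts in the library labelled KO and 4006 in the library labelled WT, a ratio of 1.53 (1.47 to 1.59). Its log2 ratio of 0.61 was under 1.5-fold with TMM factors (0.58), median-of-ratios factors (0.54), on FPKM (0.55) and after the GC and length correction (0.51). Before the GC and length correction the core proteins differed in direction. Uqcrc2 had 2543 counts in the library labelled KO and 2183 in the library labelled WT (log2 ratio 0.33, and -0.01 after the correction). Uqcrc1 had 5613 counts in the library labelled KO and 8248 in the library labelled WT (log2 ratio -0.45, and -0.22 after the correction). Uqcr11, the member of complex III with the highest level, had 371 FPKM in the library labelled KO and 518 FPKM in the library labelled WT. Its log2 ratio of CPM was -0.42, and -0.04 after the correction. Uqcrfs1, the Rieske iron-sulfur protein that passes electrons to cytochrome c1, was close to level (log2 ratio 0.08).

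Apart from the isoform genes, complex IV held 9 members past the minimum with log2 ratios from -0.26 to 0.74. With the isoform genes its median was 0.06, which turned to -0.01 with median-of-ratios factors and to -0.07 without members that share sequence with another gene. Cox7b, a small subunit encoded on the X chromosome (chrX:106015700-106022450, plus strand), had 2351 counts in the library labelled KO and 1516 in the library labelled WT, a ratio of 1.67 (1.57 to 1.78). Cox7c and Cox6c were higher by less, with log2 ratios of 0.32 and 0.23. Cox5b was the lowest of the 9, with 4710 counts in the library labelled KO and 6069 in the library labelled WT (log2 ratio -0.26). On the authors' FPKM, Cox6a1 and Cox8a had the highest levels of all 80 members: 958 and 757 FPKM in the library labelled KO, and 1027 and 734 FPKM in the library labelled WT. Per kilobase of the longest coding transcript Cox6a1 stayed first. Atp5b, with 785 CPM per kilobase in KO and 778 in WT, was above Cox8a, with 738 in KO and 688 in WT. In WT, Atp5e (838 CPM per kilobase) was above both, and Uqcr11 (706) was above Cox8a. In KO these were at 664 and 526. The complex summed to 2198 CPM in the library labelled KO and 2163 CPM in the library labelled WT, a ratio of 1.016 (1.004 to 1.028) that turned below 1 with TMM, median-of-ratios or FPKM scaling.

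**Figure D3:**
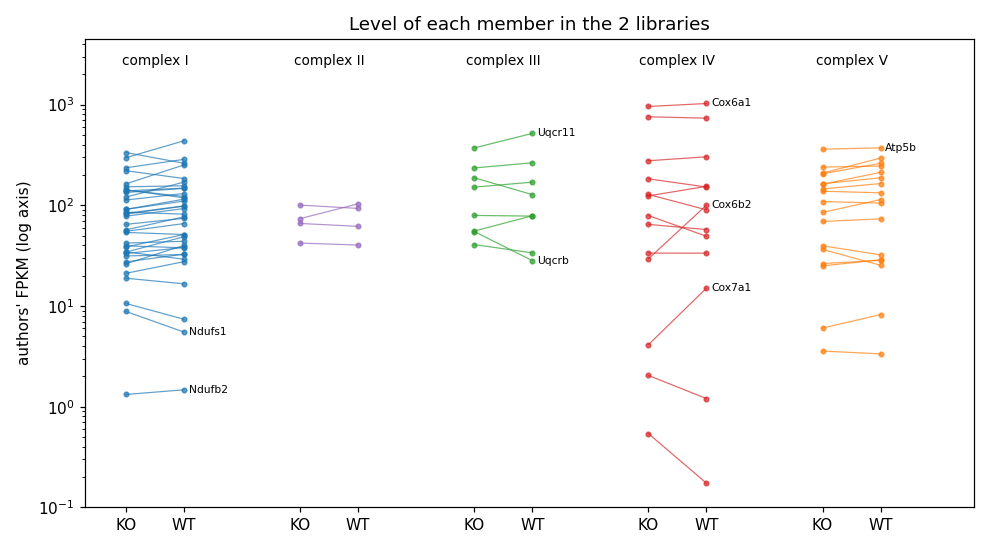
The authors' FPKM (log axis) of each member in the library labelled KO (left of each pair) and the library labelled WT (right), joined by a line, by complex. Genes at 0 in both libraries are not drawn. Most lines are near level, Cox6b2 and Cox7a1 lie well lower in KO, and Uqcrb lies higher in KO.

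Complex V had 7 of 17 members above 0 (41.2%, against 55.0% of all genes) and 10 below, all within 1.5-fold (77.8% of all genes were). The catalytic core was level: Atp5b, the beta subunit, had 37407 counts in the library labelled KO and 39974 in the library labelled WT (log2 ratio 0.01), and Atp5a1, the alpha subunit, had 18377 counts in the library labelled KO and 19512 in the library labelled WT (log2 ratio 0.02). The central stalk genes Atp5c1, Atp5d and Atp5e had log2 ratios of -0.12, -0.29 and -0.34. After the GC and length correction these were -0.29, 0.06 and -0.12. The peripheral stalk genes were split. Atp5f1 (subunit b) was the highest of the complex, with 3662 counts in the library labelled KO and 2641 in the library labelled WT (log2 ratio 0.58, just under 1.5-fold). Atp5j (coupling factor 6) had a log2 ratio of 0.35, Atp5o of 0.11 and Atp5h of -0.14. The 3 genes for the same c-ring protein differed: Atp5g3 was at 0.11, Atp5g1 at -0.15, and Atp5g2 at -0.44, with 8561 counts in the library labelled KO and 12522 in the library labelled WT. Their order changed after the GC and length correction, to 0.14 for Atp5g3, -0.39 for Atp5g1 and -0.05 for Atp5g2. Atp5k (subunit e) had a log2 ratio of -0.37. Atp5s and Atp5sl, which the symbol rule takes in, are not core subunits of ATP synthase and had log2 ratios of 0.14 and -0.38. The complex summed to 5161 CPM in the library labelled KO and 5399 CPM in the library labelled WT, a ratio of 0.956 (0.949 to 0.963), and its median log2 ratio of -0.05 turned to 0.02 without the members that share sequence with another gene. That median was -0.08 with TMM factors, -0.12 with median-of-ratios factors, -0.10 on FPKM and -0.12 after the GC and length correction.

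Members with GC-poor transcripts tended to be higher in KO than members with GC-rich ones, and so did genes in general. Over the 76 members, Spearman's correlation between transcript GC content and log2 ratio was -0.593, and over 12371 genes it was -0.453. Within complexes I, III, IV and V it was -0.570, -0.905, -0.527 and -0.355, over 36, 8, 11 and 17 members. These are descriptions across genes of the same 2 libraries. Of the 38 members with the lower GC content, 25 were above 0 (median 0.12), and of the 38 with the higher, 8 were (median -0.22). All genes of the same GC ranges had medians of 0.24 and -0.16. Uqcrb at 42.2% GC and Cox7b at 42.0% lay at the low end, and Atp5g2 at 63.3% and Ndufa13 at 60.4% at the high end. After the median of genes of like GC content and length was subtracted, Ndufa13 was at -0.22 and Atp5g2 at -0.05, Ndufs1 at 0.46, Cox7b at 0.50 and Uqcrh at 0.51. Uqcrb stayed past 1.5-fold at 0.72, Cox6b2 at -1.48 and Cox7a1 at -1.38, and Cox7a2 (0.59) and Ndufb8 (-0.65) came past it. The correction changed the sign of 22 of the 76 members, and left 31 above 0. The part of base composition in the other differences was not tested further.

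**Figure D4:**
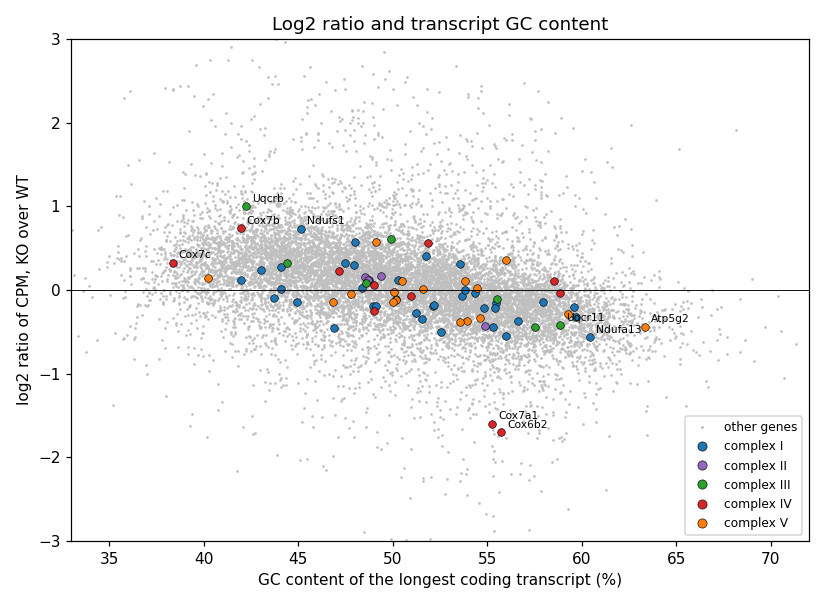
GC content of the longest coding transcript (percent) against the log2 ratio of CPM, KO over WT, for members by complex (coloured) and all other genes past the minimum (grey). Genes beyond the axes are not drawn. Members follow the downward slope of the grey cloud, except for Cox6b2 and Cox7a1 far below it.

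Shared sequence limits some members. Another annotated gene shared 90% identity over 100 bases or more with 36 members, a pseudogene with 34 of them, and 27 members overlapped exons of another gene and the library kit does not mark strand. Ndufa12 was the most affected by count: its near-identical pseudogene held 42.6% of their pooled counts in the library labelled KO and 44.9% in the library labelled WT. For Ndufs5 the copy BC002163 had 430 counts in the library labelled KO and 34 in the library labelled WT. Ndufs5 alone had a log2 ratio of -0.20 and pooled with that copy 0.11, so its direction is uncertain. Atp5l and Atp5g1 kept their direction when pooled, at -0.13 and -0.28.

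Other genes of the pathway were read from 11 lists, set beside the members. Subunits outside the symbol rule numbered 11, of which 10 were analysed and 9 passed the minimum. Of these 9, 5 were above 0 (55.6%, against 55.0% of all genes) and 4 below. Their median of 0.02 turned to -0.01 with TMM factors, -0.05 with median-of-ratios factors, -0.04 on FPKM and -0.10 after the GC and length correction. Beside Ndufa4l2, Cox4i2 and Cox4i1 these included Cyc1 (cytochrome c1, log2 ratio -0.37), Cycs (somatic cytochrome c, 0.52) and 2010107E04Rik, the highest at 0.61.

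The mitochondrially encoded subunits were higher as a sum, with 8732 CPM in the library labelled KO and 7857 CPM in the library labelled WT, a ratio of 1.111 (1.105 to 1.118). Of 13 genes, 11 passed the minimum, with 8 above 0 (72.7%, against 55.0% of all genes) and 3 below. Their median of 0.22 turned to -0.06 after the GC and length correction. Most counted among them was mt-Co1, the catalytic subunit of complex IV, with 100982 counts in the library labelled KO and 93675 in the library labelled WT. Past 2-fold were mt-Atp6, with 527 counts in the library labelled KO and 193 in the library labelled WT (log2 ratio 1.49), mt-Co3, with 538 counts in KO and 210 in WT (1.41), and mt-Co2, with 583 counts in KO and 303 in WT (1.02). Counts of these 3 genes were low beside those of mt-Co1 or of mt-Cytb, with 29947 in the library labelled KO and 29900 in the library labelled WT. The sum given above is therefore carried by other genes of the list. These 3 genes have nuclear pseudogenes of 100% identity over the shared stretch. The copies had 501, 439 and 273 counts in the library labelled KO and 216, 217 and 204 in the library labelled WT. How reads of these 3 genes were split or left out is therefore uncertain. mt-Co2 was under 2-fold when pooled with those copies (0.85), with TMM factors (0.99), median-of-ratios factors (0.96) or 2 CPM added (0.94), on FPKM (0.98) and after the GC and length correction (0.78). mt-Nd3 had 60 counts in the library labelled KO and 34 in the library labelled WT (log2 ratio 0.72). Its nuclear copy had 427 counts in the library labelled KO and 465 in the library labelled WT, and pooled with it the log2 ratio was 0.07. mt-Nd5 was the lowest of the list, at -0.12.

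Assembly factors showed no common direction. Of 16 analysed for complex I, 10 were above 0 (62.5%, against 55.0% of all genes) and 6 below, from Ndufaf1 at -0.60 to Ndufaf4 at 0.61. The 4 for complex II were all above 0, the highest being Sdhaf3 (0.63, from 73 counts in the library labelled KO and 46 in the library labelled WT), and their median of 0.18 turned to -0.03 after the GC and length correction. Of 6 for complex III, 5 were below 0 (83.3%, against 45.0% of all genes). Bcs1l (-0.49), which inserts the Rieske protein, was the lowest, and Ttc19 (0.75) the only one above. Of 25 for complex IV, 21 passed the minimum, with 13 above 0 (61.9%) and 8 below. Cox16 was past 2-fold, with 317 counts in the library labelled KO and 143 in the library labelled WT, a ratio of 2.39 (1.95 to 2.93), but its log2 ratio was under 2-fold on FPKM (0.98) and after the GC and length correction (0.88). Pet100 was the lowest at -0.80. Sco2 and Pet117 were listed at 0 in both libraries. Among 5 genes for complex V, Atpif1, the inhibitor of ATP synthase, was the highest at 0.70 and Fmc1, an assembly factor, the lowest at -0.76. Their median of 0.04 turned to -0.02 with median-of-ratios factors, -0.01 on FPKM and -0.11 after the GC and length correction.

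Enzymes that feed the chain were mostly above 0, where 55.0% of all genes were. Of 17 genes of the tricarboxylic acid cycle and pyruvate entry, 14 were above 0 (82.4%), with a median log2 ratio of 0.32. That median was 0.23 after the GC and length correction, and no gene of this list was past 2-fold. Sucla2, a subunit of succinyl-CoA ligase, was the highest, with 827 counts in the library labelled KO and 496 in the library labelled WT (log2 ratio 0.83), and Idh3g, a subunit of isocitrate dehydrogenase, the lowest at -0.11. Of 6 carriers and porins, 5 were above 0 (83.3%, median 0.21), from Vdac1 at -0.01 to the ADP/ATP carrier Slc25a5 at 0.69. The GC and length correction took that median to 0.02, with Vdac3 (-0.02), Slc25a3 (-0.03) and Vdac1 (-0.05) below 0. Of 13 regulators of mitochondrial biogenesis, 11 passed the minimum, with 8 above 0 (72.7%). Their median of 0.13 turned to -0.05 after the GC and length correction. Tfb2m, a mitochondrial transcription factor, was the highest at 0.53, and the nuclear receptor Esrra the lowest, with 1889 counts in the library labelled KO and 3105 in the library labelled WT (log2 ratio -0.61).

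The 7 hypoxia-linked regulators of respiration had a median of -0.74, with 6 below 0 (85.7%, against 45.0% of all genes). Of the 7, 4 were lower by 1.5-fold or more, where 8.88% of all genes were. The list holds Ndufa4l2 and Cox4i2, already described above as isoform genes. It was chosen with earlier results of these data known, so these shares only describe it. Beside Ndufa4l2 and Cox4i2, Pdk1, a kinase that inhibits pyruvate dehydrogenase, was past 2-fold, with 295 counts in the library labelled KO and 655 in the library labelled WT, a ratio of 0.485 (0.422 to 0.558), but its log2 ratio was under 2-fold on FPKM (-0.90) and with 2 CPM added (-0.93). Higd1a, which binds complex IV, had 862 counts in the library labelled KO and 1558 in the library labelled WT (log2 ratio -0.74). Hif1a, the gene for the oxygen-sensitive factor subunit, was the 1 gene above 0, with 3186 counts in the library labelled KO and 2210 in the library labelled WT (log2 ratio 0.63). Ndufa4l2, Cox4i2 and Higd1a each stand in 2 of the 11 lists.

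**Figure D5:**
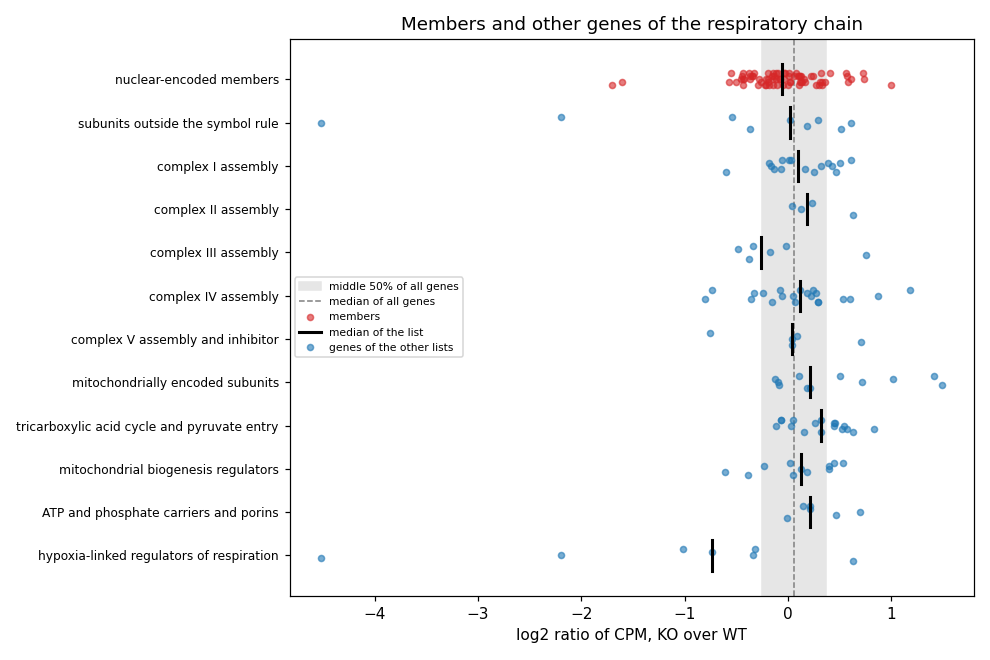
Log2 ratio of CPM, KO over WT, of each gene past the count minimum among the members (red, top row) and the 11 other lists (blue), with the median of each list as a black bar and the middle 50% of all genes in grey. The hypoxia-linked list has its median at -0.74, and the other medians lie between -0.26 and 0.32.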

How the data were processed

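The study sequenced ribosomal-RNA-depleted total RNA of 1 KO and 1 WT library with a kit that does not mark strand, per the labels' protocols. Counts and FPKM per gene were deposited by the authors for each library, per the file headers. Reads were aligned to mm10 (GRCm38) with HISAT2, as the submitters' processing notes list them. The counting program, its use of strand, the annotation and the scaling of FPKM were not given in the sources used here. Whether a count includes reads shared between near-identical genes is therefore unknown.

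Counts were divided by their total (24876830 in KO, 26805787 in WT) to give CPM. Left out were 4 genes with a count-to-FPKM ratio more than 1% apart in the 2 tables. Folds are CPM ratios with exact (Clopper-Pearson) 95% intervals. Reads from PCR carry no molecular identifiers here and do not stand for separate molecules, so intervals and floors cover counting error only. Genes were called at 1.5-fold and 2-fold. Levels of different genes were compared on the authors' FPKM. The count, FPKM and total of the library labelled WT gave a length for each member. At the median it was 0.945 times the union of annotated exons (0.294 to 2.30 over 78 members). The total that the authors divided by is not given, so this factor can hold a difference in that total and is not a gene length alone. In 12 members that union was over 3 times the longest coding transcript, so their FPKM is low for that transcript. Positions, transcripts and UTRs came from GENCODE M21, which held 52489 of the 52636 identifiers. Promoters and the microRNA came from RefSeq. Near-identical genes were found with blastn of BLAST 2.17.0 on transcripts. TMM factors came from edgeR 4.0.16, and the rest was computed with Python 3.11.15 and pandas 2.3.3. The scripts were tested on simulated data. Alternatives were other scaling factors, count minimums, pseudocounts, FPKM, a GC and length correction in 10 bins each, and members without shared sequence.

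Named genes were members past 2-fold, the 3 highest and 3 lowest of each complex (2 in complexes II and III), the member with the highest FPKM of each complex, isoform pairs, members with a seed match, and for each other list the highest, the lowest and those past 2-fold. Others were named after their values were seen. The members and lists were chosen with earlier results of these data known.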

Additional observations from a re-analysis of the deposited data

How the results depend on the processing

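No paired analysis was possible because each group has 1 library. Leaving out a replicate was not possible for the same reason. The members' median of -0.06 stayed below 0 under every alternative run, from -0.13 with median-of-ratios factors to -0.01 without members sharing sequence. Its distance from the median of all genes, -0.12, was -0.045 after the GC and length correction and -0.051 with a minimum of 1000 counts, which was chosen after seeing the data.

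With median-of-ratios factors the median was 0.070 for complex II and -0.080 for complex III, and 4 members were lower by 1.5-fold, as on FPKM (4). The 2 added are Ndufa13 (-0.63 and -0.62) and Ndufv3 (-0.61 and -0.60). The GC and length correction gave complex II -0.074 and 2 members higher by 1.5-fold, and a 2-fold threshold 0 higher. Without members sharing sequence, complexes I, IV and V had medians of -0.037, -0.075 and 0.021.

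The log2 ratios of summed CPM of complexes I to V were -0.18, -0.044, -0.099, -0.0081 and -0.096 with TMM factors, -0.21, -0.079, -0.13, -0.043 and -0.13 with median-of-ratios factors, and -0.16, -0.081, -0.14, -0.041 and -0.18 on FPKM. By counts, Cox6b2 made up 14.2% of its pair in KO and 34.1% in WT, Cox7a1 1.79% in KO and 8.63% in WT, and Ndufa4l2 16.4% in WT.

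The median of the mitochondrially encoded list was 0.18 with TMM, 0.15 with median-of-ratios factors, 0.20 with a minimum of 200 counts, 0.16 on FPKM and -0.061 after the correction. That of the subunits outside the symbol rule was -0.048 with median-of-ratios factors, 0.098 with a minimum of 200 counts, -0.039 on FPKM and -0.10 after the correction. The hypoxia-linked median was -0.54 with a minimum of 200 counts. After the correction the medians were -0.025 for complex II assembly, 0.23 for the citric acid cycle list, -0.048 for biogenesis regulators and 0.016 for carriers and porins. The cause of these shifts was not tested. No result named here as past a fold changed direction under any alternative run. Depth limits the 4 members under the minimum.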

Other observations

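Of the 80 members, 3 are encoded on the X chromosome: Ndufa1 (log2 ratio 0.32), Ndufb11 (-0.50) and Cox7b (0.74). The library labelled KO held 0 counts of Xist, a noncoding RNA of X inactivation, and the library labelled WT held 4288. Sex, which the labels do not give, and genotype cannot be told apart in these values. The members lay on 19 chromosomes, with 9 on chromosome 7, among them Cox6b2, Cox6b1 and Cox7a1.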
